A study of Homo sapiens with 18 samples.

Results

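GBP1, GBP2, GBP3, GBP4 and GBP5 encode guanylate-binding proteins, large GTPases that interferons induce. These 5 genes were chosen by symbol from the 43236 rows of a gene count table, with their response to the compound already known. The table came from cells of NCI-H1693, a human line established from non-small cell lung cancer and labelled SMARCA4-deficient. Cells were kept for 6, 48 or 72 h in 50 nM PRT3789, a degrader selective for SMARCA2, or in its solvent DMSO. SMARCA2 is, like SMARCA4, an ATPase that drives SWI/SNF complexes, which move nucleosomes. The 6 groups, PRT3789 at 6, 48 and 72 h and DMSO at 6, 48 and 72 h, each had 3 libraries, and no agent or engineered change other than PRT3789 or DMSO is named for any group.

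Guanylate-binding proteins bind and hydrolyse GTP, assemble into polymers, and coat bacteria and vacuoles that enter the cytosol of human cells. GBP1 starts the coat on Gram-negative bacteria by binding their lipopolysaccharide, then brings in GBP2, GBP3 and GBP4, and the coat recruits and activates caspase-4. GBP1, GBP2 and GBP5 end in a prenylation motif that lets them sit on membranes, while GBP3 and GBP4 lack a lipid anchor. GBP2 and GBP5 also inhibit the protease furin. Interferon gamma induces the family through GAS elements and through IRF1 on interferon-stimulated response elements (ISRE), and epithelial cells also carry some of these transcripts without added interferon.

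Promoter sequences are given first because the members differed in their response while sitting next to each other on 1 chromosome. The windows shown run from 250 bases before to 50 bases after the start of GBP1, GBP3 and GBP4, the 3 of 5 members matched in the promoter table used here, made from RefSeq (GRCh38.p14); those of GBP2 and GBP5 were not analysed here. They lie at chr1:89022817-89023116 for GBP3, chr1:89065159-89065458 for GBP1 and chr1:89198893-89199192 for GBP4, all on the minus strand and written 5′ to 3′ along the gene. Capitals mark every match, on either strand, to the ISRE core GAAANNGAA, the GAS element TTCNNNGAA, the AP-1 motif TGANTCA or the NF-kB motif GGNNTTTCC.
GBP3: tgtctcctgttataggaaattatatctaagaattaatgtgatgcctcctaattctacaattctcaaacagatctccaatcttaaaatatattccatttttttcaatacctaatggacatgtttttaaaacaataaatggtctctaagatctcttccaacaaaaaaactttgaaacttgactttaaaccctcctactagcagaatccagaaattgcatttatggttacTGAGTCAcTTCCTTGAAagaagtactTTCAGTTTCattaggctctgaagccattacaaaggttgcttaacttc
GBP1: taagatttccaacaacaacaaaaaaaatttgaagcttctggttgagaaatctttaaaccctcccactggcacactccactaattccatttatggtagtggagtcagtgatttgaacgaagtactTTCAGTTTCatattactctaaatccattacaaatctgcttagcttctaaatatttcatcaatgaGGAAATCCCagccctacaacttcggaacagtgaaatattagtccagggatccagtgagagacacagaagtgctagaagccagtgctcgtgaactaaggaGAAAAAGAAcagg
GBP4: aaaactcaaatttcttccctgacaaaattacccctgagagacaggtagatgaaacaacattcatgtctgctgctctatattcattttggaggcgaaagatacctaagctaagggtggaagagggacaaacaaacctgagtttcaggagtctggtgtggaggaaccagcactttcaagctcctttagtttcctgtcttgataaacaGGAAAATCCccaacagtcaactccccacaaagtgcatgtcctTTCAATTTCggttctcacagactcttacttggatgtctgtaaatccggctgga

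The ISRE core occurred in 3 of the 3 windows, and in 8.11% of the 35116 promoters of the RefSeq table. Counted with 0 as the first transcribed base in RefSeq, its matches began at position 3 in GBP3, at -126 and 37 in GBP1, and at -3 in GBP4. All positions depend on that annotation. GENCODE begins GBP1 at 89065360, against 89065208 in RefSeq, and GBP3 at 89022894, against 89022866. The GAS letters TTCNNNGAA occurred only in the GBP3 window, at -15, against 7.66% of all promoters. Looser forms of the GAS element were not searched, so a window without these letters may still hold one. The AP-1 motif was also matched in GBP3 only, at -23, against 7.71% of all promoters. NF-kB letters were found in GBP1 at -62 and in GBP4 at -45, against 6.26% of all promoters. No match overlapped a match of another motif; the GAS and AP-1 patterns read the same on both strands. GBP1 and GBP3 shared a run of 19 bases, gaagtactttcagtttcat, which began at -134 in GBP1 and at -5 in GBP3 and which holds an ISRE core match in both. A match describes letters in a window and shows no binding.

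Libraries held 23154484 to 31094797 counts. Levels are given as CPM, the share of a gene in the counts of its library, in parts per 1000000, after TMM scaling (trimmed mean of M values, a correction for library composition), and differences as the log2 fold change of PRT3789 over DMSO with its standard error (SE) from edgeR. Replicate libraries agreed less well at 6 h, where their SD on the log2 scale had a median over 11059 genes of 0.149 in PRT3789 and 0.167 in DMSO, than at 72 h, where it was 0.0669 in PRT3789 and 0.0722 in DMSO. All groups share 1 estimate of the spread, so p-values of the 6 h comparison may come out too low. The epithelial markers EPCAM, KRT8, KRT18 and CDH1 averaged 681, 3781, 2741 and 219 CPM over the 18 libraries. SMARCA4 averaged 9.29 CPM, so its transcript was detected in a line labelled as deficient. SMARCA2 had log2 fold changes of 0.04 at 6 h, -0.19 at 48 h and -0.44 at 72 h, of which the last passed the test (adjusted p = 0.00108); a degrader acts on the protein, which was not measured.

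GBP2 was the member whose level differed most between treated and solvent cells. At 6 h it had 32.5, 37.0 and 29.1 CPM in PRT3789, against 52.0, 50.6 and 52.7 CPM in DMSO. At 48 h it had 3.63, 2.32 and 2.12 CPM in PRT3789, against 58.2, 59.3 and 59.9 CPM in DMSO. At 72 h it had 1.77, 1.12 and 1.39 CPM in PRT3789, against 47.1, 45.3 and 46.6 CPM in DMSO. Every PRT3789 library lay below every DMSO library of its time, and the later libraries lay far below those of 6 h. In raw counts, the 72 h libraries held 51, 33 and 40 GBP2 counts in PRT3789 and 1339, 1212 and 1401 in DMSO.

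The means were 32.9 ± 3.98 CPM in PRT3789 and 51.8 ± 1.07 CPM in DMSO at 6 h (SD, n = 3 each, as in all means here). The GBP2 log2 fold change was -0.66 (SE 0.12) at 6 h, -4.45 (SE 0.15) at 48 h and -5.02 (SE 0.16) at 72 h. GBP2 was thus 1.58-fold lower in PRT3789 at 6 h, 21.9-fold lower at 48 h and 32.4-fold lower at 72 h. It stood at place 747 from the lowest of the 16291 tested log2 fold changes at 6 h, at place 99 at 48 h and at place 64 at 72 h. The members were chosen on these contrasts, so the values of GBP1 to GBP5 between PRT3789 and DMSO are a description without a test. The log2 fold change of GBP2 moved by -3.80 (SE 0.19) between 6 and 48 h and by a further -0.56 (SE 0.23) between 48 and 72 h.

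**Figure D1:**
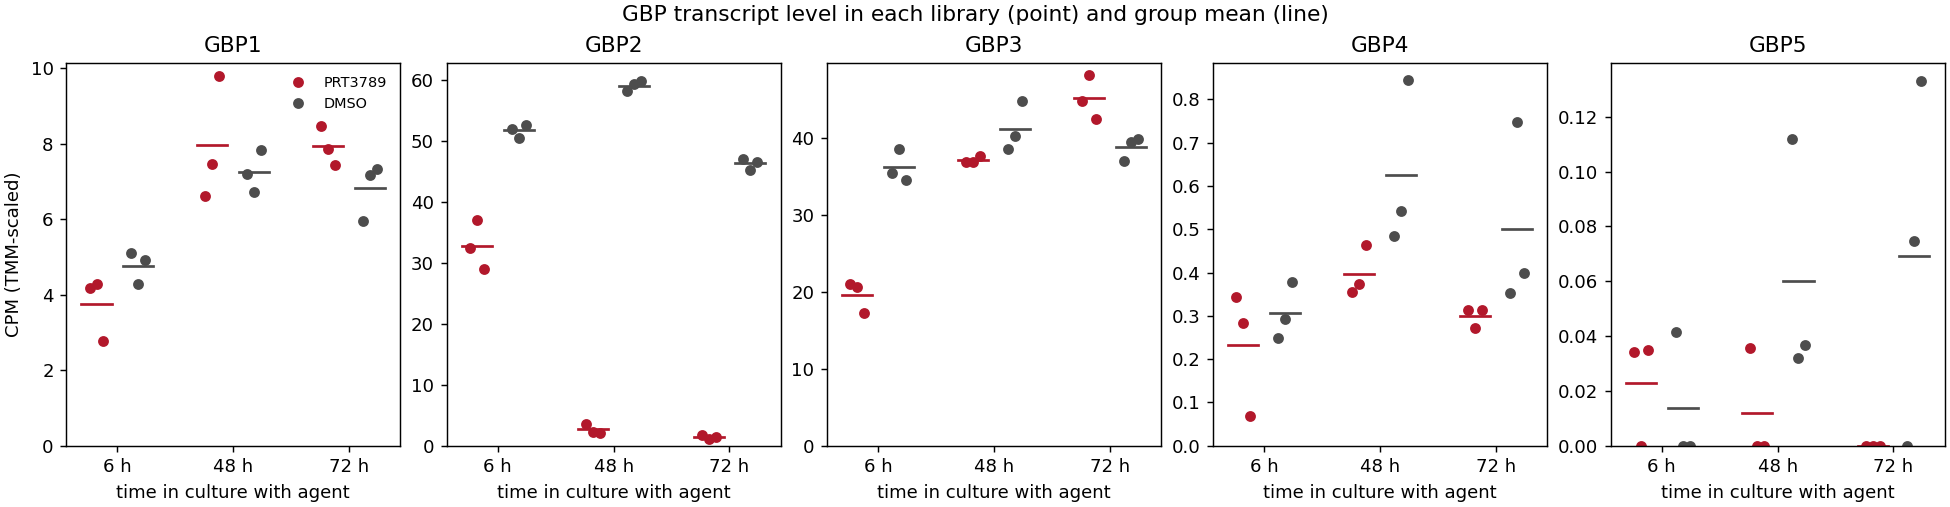
CPM (TMM-scaled, linear axis, each panel with its own scale) of GBP1 to GBP5 in each of the 18 libraries, by time, with PRT3789 left of DMSO; lines are group means. GBP2 lies at 3.63 CPM or below in the 6 PRT3789 libraries of 48 and 72 h, and at 45.3 CPM or above in every DMSO library.

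In a bulk sample, fewer cells of a type and less RNA per cell cannot be told apart. Of 8 markers of leukocytes and endothelium, NKG7 (cytotoxic lymphocytes) had no count in any library and MS4A1 (B cells) had 1 count in all. The summed level of the 8 ran from 0.974 to 1.19 CPM in PRT3789 and from 3.33 to 4.29 CPM in DMSO at 72 h. The cadherin CDH5 made up that gap: it averaged 0.0232 CPM in PRT3789 and 2.84 CPM in DMSO at 72 h, and without it the sums ran from 0.904 to 1.19 CPM in PRT3789 and from 0.934 to 1.26 CPM in DMSO. At 48 h the sums ran from 0.960 to 1.62 CPM in PRT3789 and from 2.98 to 3.80 CPM in DMSO, and CDH5 averaged 0.0257 CPM in PRT3789 and 2.30 CPM in DMSO. The epithelial markers of the line were called lower at the same times, 4 of 4 at 48 h and 3 of 4 at 72 h, with log2 fold changes of -1.29 and -1.36 for KRT8, -1.35 and -1.43 for KRT18, -0.69 and -0.99 for CDH1, and -0.30 and -0.07 (not called) for EPCAM. At 72 h KRT8 averaged 1811 CPM in PRT3789 and 4634 CPM in DMSO. The part of any of these markers in the GBP2 values was not tested.

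GBP3 was lower in treated cells early and near or above the solvent level later. At 6 h it had 21.0, 20.6 and 17.2 CPM in PRT3789, against 35.4, 38.6 and 34.6 CPM in DMSO. At 48 h the libraries held 36.9, 36.9 and 37.7 CPM in PRT3789, against 38.5, 40.2 and 44.8 CPM in DMSO. At 72 h they held 44.8, 48.2 and 42.5 CPM in PRT3789, against 37.0, 39.5 and 39.9 CPM in DMSO. PRT3789 libraries lay below DMSO libraries at 6 and 48 h and above them at 72 h, without overlap at any time. The log2 fold change of GBP3 was -0.88 (SE 0.08) at 6 h, -0.15 (SE 0.08) at 48 h and 0.22 (SE 0.08) at 72 h. At 6 h this was the largest difference of any member, 1.85-fold lower in PRT3789. The log2 fold change of GBP3 moved by 0.73 (SE 0.12) between 6 and 48 h and by 0.37 (SE 0.12) between 48 and 72 h. GBP2 and GBP3 were thus both lower in PRT3789 at 6 h, and their values moved in opposite directions afterwards.

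GBP1, the member that starts the coat on bacteria, differed little between treated and solvent cells. At 6 h it had 4.18, 4.28 and 2.79 CPM in PRT3789, against 5.10, 4.27 and 4.92 CPM in DMSO. At 48 h it had 6.62, 7.46 and 9.78 CPM in PRT3789, against 7.19, 6.70 and 7.82 CPM in DMSO. At 72 h it had 8.47, 7.86 and 7.44 CPM in PRT3789, against 5.95, 7.18 and 7.31 CPM in DMSO. The groups overlapped at 6 and 48 h, and at 72 h the lowest PRT3789 library lay just above the highest DMSO library. The log2 fold change of GBP1 was -0.34 (SE 0.17) at 6 h, 0.14 (SE 0.16) at 48 h and 0.22 (SE 0.16) at 72 h. At 48 h its sign rested on PRT3789 replicate 3, without which the log2 fold change was -0.06.

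GBP4 and GBP5 were close to the detection limit, taken as 3 counts, which correspond to 0.0958 to 0.142 CPM in a library. GBP4 had 10, 8 and 2 counts in PRT3789 and 6, 7 and 8 counts in DMSO at 6 h. At 48 h GBP4 had 10, 9 and 14 counts in PRT3789 and 13, 17 and 23 in DMSO. At 72 h GBP4 had 9, 8 and 9 counts in PRT3789 and 10, 20 and 12 in DMSO. In CPM, GBP4 libraries of PRT3789 lay below those of DMSO at 48 and 72 h and overlapped with them at 6 h. The log2 fold change of GBP4 was -0.39 (SE 0.49) at 6 h, -0.64 (SE 0.40) at 48 h and -0.72 (SE 0.43) at 72 h. At 6 h it was 0.05 without PRT3789 replicate 3, the library with 2 counts.

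GBP5 had 0 to 4 counts in every library and did not pass the filter on low counts, so no fold change was fitted. Summed over a group, GBP5 had 2 counts in PRT3789 and 1 in DMSO at 6 h, 1 in PRT3789 and 5 in DMSO at 48 h, and 0 in PRT3789 and 6 in DMSO at 72 h. These sums lie near the detection limit in every group, and a difference between PRT3789 and DMSO was not tested. The other genes of the family were as low: GBP6 had at most 4 counts in a library, GBP7 at most 3, and the pseudogene GBP1P1 at most 2. Of the 5 members, 4 thus passed the filter, and GBP1, GBP2 and GBP3 carried nearly all of the signal.

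Reads of these related genes could be split between copies when counted. No stretch of 100 bases in the main transcript of GBP1, GBP2, GBP3, GBP4 or GBP5 (GENCODE, GRCh38) occurred exactly in a transcript of another GBP gene. For GBP7, 22.5% of such stretches did.

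Many genes of these libraries differed between PRT3789 and DMSO, and the members are read beside that. At 6 h, GBP2 and GBP3 lay lower in PRT3789 without overlap, as did 8.35% of the 16291 tested genes, and no member lay higher, against 6.36% of tested genes. At 48 h, GBP2, GBP3 and GBP4 lay lower without overlap, as did 27.5% of tested genes, and no member lay higher, against 28.7%. At 72 h, GBP2 and GBP4 lay lower, as did 30.7% of tested genes, and GBP1 and GBP3 lay higher, as did 31.2%. These shares stand beside the members without a reading, since the choice of members used the same contrasts. The median log2 fold change of all tested genes was -0.01 at 6 h, 0.01 at 48 h and 0.01 at 72 h.

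**Figure D2:**
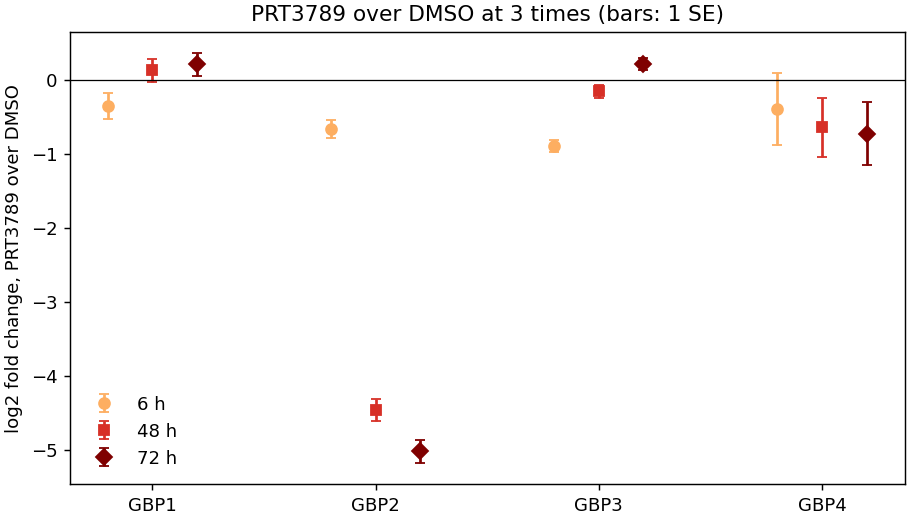
Log2 fold change of PRT3789 over DMSO (edgeR estimate, bars 1 SE) for the 4 members that passed the filter, at 6, 48 and 72 h. GBP2 lies at -0.66, -4.45 and -5.02 at the 3 times, and GBP3 at -0.88, -0.15 and 0.22.

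Levels of different genes are comparable only per length, so CPM was divided by the length of each main transcript in kb. In DMSO at 72 h, GBP3 had 12.8 ± 0.513, GBP2 11.3 ± 0.231, GBP1 2.36 ± 0.260, GBP4 0.0813 ± 0.0352 and GBP5 0.0102 ± 0.00978 CPM per kb. In PRT3789 at 72 h the same measure was 14.9 ± 0.945 for GBP3, 2.75 ± 0.178 for GBP1, 0.349 ± 0.0795 for GBP2, 0.0487 ± 0.00380 for GBP4 and 0 for GBP5. GBP2 thus stood near GBP3 in solvent cells, and below GBP1 in cells kept for 72 h in the degrader. The same order, GBP3, GBP1, GBP2, GBP4 and GBP5, held in PRT3789 at 48 h, with 12.2 ± 0.148 for GBP3, 2.76 ± 0.568 for GBP1 and 0.658 ± 0.200 CPM per kb for GBP2. At 6 h GBP2 came first in both arms, with 8.04 ± 0.974 CPM per kb in PRT3789 and 12.7 ± 0.262 in DMSO, against 6.46 ± 0.690 in PRT3789 and 11.9 ± 0.693 in DMSO for GBP3. In DMSO at 6 h those GBP2 and GBP3 levels lay about as far apart as the SD of GBP3.

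The summed level of the 5 genes was 15.8 ± 1.87 CPM per kb in PRT3789 and 26.3 ± 0.289 in DMSO at 6 h. At 48 h the sum was 15.7 ± 0.585 in PRT3789 and 30.6 ± 1.43 in DMSO. At 72 h it was 18.02 ± 0.987 in PRT3789 and 26.6 ± 0.666 in DMSO. The sum was lower in PRT3789 at all 3 times, while its make-up differed. GBP2 gave 50.8% of it in PRT3789 and 48.2% in DMSO at 6 h, 4.21% in PRT3789 and 47.2% in DMSO at 48 h, and 1.95% in PRT3789 and 42.7% in DMSO at 72 h. GBP3 gave 40.8% in PRT3789 and 45.3% in DMSO at 6 h, 77.9% in PRT3789 and 44.2% in DMSO at 48 h, and 82.5% in PRT3789 and 48.1% in DMSO at 72 h. GBP1 gave 15.3% in PRT3789 and 8.88% in DMSO at 72 h. Family transcript in treated cells at the later times was thus mostly GBP3, with GBP1 after it.

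**Figure D3:**
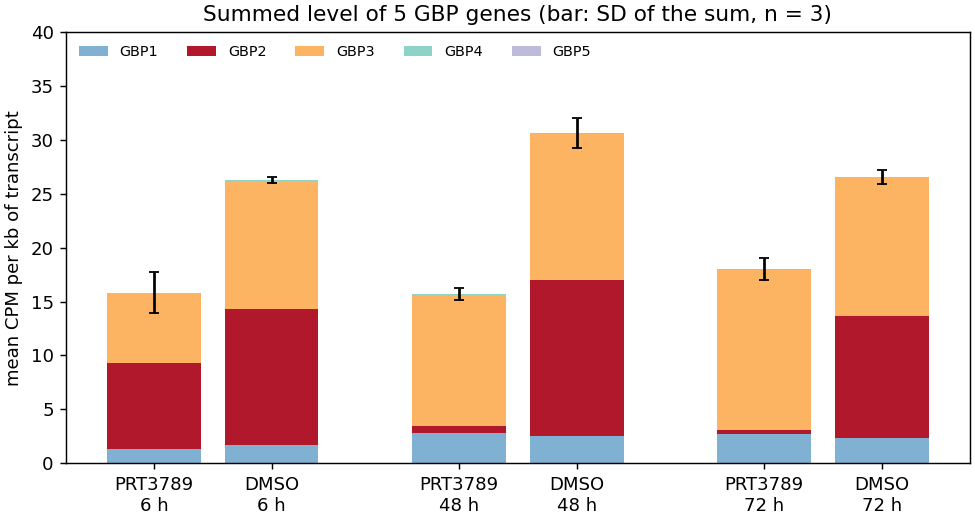
Mean CPM per kb of transcript of the 5 GBP genes, stacked by gene, in PRT3789 and DMSO at each time (linear axis from 0; black bars are the SD of the sum over 3 libraries). The GBP2 layer is 0.658 in PRT3789 and 14.5 in DMSO at 48 h, and 0.349 in PRT3789 and 11.3 in DMSO at 72 h.

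Time in culture alone was tested in the solvent libraries, which are also the DMSO arm of every value above. The choice of members did not rest on this contrast but was made with earlier results of these data known. The p-values of this contrast may therefore not be independent of that choice. GBP1 rose in DMSO between 6 and 48 h, to 7.24 ± 0.561 CPM at 48 h, against 4.76 ± 0.437 CPM at 6 h. This was 1.52-fold, a log2 fold change of 0.60 (SE 0.16), with an adjusted p of 0.00831 by the edgeR quasi-likelihood test with Benjamini-Hochberg adjustment over all 16291 tested genes. A rise was called for 17.1% of tested genes in the same comparison. All 3 DMSO libraries of 48 h lay above all 3 of 6 h for GBP1. The share of tested genes separated in this way was not counted. The other members did not pass: the log2 fold change was 0.19 for GBP2 (adjusted p = 0.214), 0.19 for GBP3 (adjusted p = 0.0857) and 1.02 for GBP4 (SE 0.43, adjusted p = 0.0731). GBP3 passed under 4 other settings, as given in the closing section.

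Between 48 and 72 h in DMSO none of the 4 members passed, in a comparison where 0.54% of tested genes did. The log2 fold change of 72 over 48 h was -0.09 for GBP1 (adjusted p = 0.775), -0.35 for GBP2 (SE 0.12, adjusted p = 0.147), -0.09 for GBP3 (adjusted p = 0.554) and -0.32 for GBP4 (adjusted p = 0.653). GBP2 averaged 46.3 ± 0.942 CPM in DMSO at 72 h and 59.1 ± 0.867 CPM in DMSO at 48 h. All 3 later libraries lay below all 3 earlier ones, but the share of tested genes separated in this way was not counted. The unadjusted edgeR p of GBP2 was 0.00832, the only one under 0.05 among the 4 members. DESeq2 called 1 of them, GBP2, and limma-voom called 0.

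In RefSeq (GRCh38.p14) the 5 genes span 266.2 kb, chr1:89006680-89272860, in the order GBP3, GBP1, GBP2, GBP4 and GBP5, with GBP7 between GBP2 and GBP4. GBP2 lies 109.4 kb from the start of the cluster, GBP1 52.08 kb and GBP3 8.093 kb, measured to the middle of each gene. The genes within 1 Mb of the cluster were not chosen on their values. RefSeq lists 46 of them beside the members, 33 had a row in the table and 14 passed the filter. At 6 h edgeR called none of them, in a comparison where 1.28% of tested genes were called higher and 3.04% lower. DESeq2 and limma-voom also called 0 there, and 2 neighbours had an unadjusted p under 0.05, both lower in PRT3789. LRRC8B was called higher at 6 h without DMSO replicate 1 (adjusted p = 0.00823), and GTF2B lower without PRT3789 replicate 3 (adjusted p = 0.0419). At 48 h, 2 were called higher and 5 lower, against 21.2% and 20.9% of tested genes. At 72 h, 1 was called higher and 4 lower, against 21.3% and 22% of tested genes. The count of higher calls was 1 at 48 h without DMSO replicate 2, and 0 at 72 h without any 1 of the 6 libraries. The median log2 fold change of the 14 was -0.10 at 6 h, -0.02 at 48 h and -0.21 at 72 h.

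The long non-coding RNA LOC112268267 lies within the span of GBP2 and had the lowest log2 fold change of the 14 neighbours at 48 and 72 h. It had 1, 0 and 3 counts in PRT3789 and 15, 10 and 16 in DMSO at 48 h, and 1, 0 and 2 in PRT3789 and 13, 2 and 5 in DMSO at 72 h. Its log2 fold change was -3.22 (SE 0.85, adjusted p = 0.00574) at 48 h and -2.61 (SE 0.99, adjusted p = 0.0413) at 72 h. LOC112268267 passed the filter through DMSO libraries of 48 and 72 h, where it was higher. Its place among the tested neighbours and these p-values are therefore not free of that selection. The call at 72 h was lost with limma-voom (adjusted p = 0.0688), with the replicate block (0.0577), without PRT3789 replicate 1 (0.0951), without PRT3789 replicate 2 (0.137) and without DMSO replicate 1 (0.257). Its strand is not given in the sources used here, so GBP2 and LOC112268267 reads may not be separable.

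RBMXL1, an RNA-binding protein gene on the GBP3 side of the cluster, rose at 48 h, with 47.3 ± 0.351 CPM in PRT3789 and 38.1 ± 1.63 CPM in DMSO (log2 fold change 0.31, adjusted p = 0.00664). GTF2B, the general transcription factor TFIIB, fell at 48 h, with 49.3 ± 3.26 CPM in PRT3789 and 68.3 ± 7.48 CPM in DMSO (log2 fold change -0.47, adjusted p = 0.00258). The pseudogene GEMIN8P4 and the zinc finger gene ZNF326, the tested neighbours farthest from the start of the cluster, fell at 48 and 72 h. Their log2 fold changes at 72 h were -1.08 and -0.27 (adjusted p = 4.57e-05 and 0.00521). The kinase gene PKN2 fell at 72 h, with a log2 fold change of -0.36 (adjusted p = 0.00771), and one of -0.01 at 48 h; the difference between these times was not tested. The volume-regulated channel subunits LRRC8B and LRRC8D had log2 fold changes of 0.43 and -0.25 at 48 h (adjusted p = 0.00941 and 0.038), and LRRC8C had one of -0.01. The LRRC8B call was lost without DMSO replicate 2 (adjusted p = 0.0661), and the LRRC8D call without any of 5 of the 6 libraries (0.0627 to 0.127). RBMXL1 also passed at 72 h (log2 fold change 0.22, adjusted p = 0.0452), but the call was lost without any 1 of the 6 libraries (0.0685 to 0.134). KYAT3, PKN2-AS1, LOC124904214, LOC105378842 and LRRC8C-DT passed at no time. RBMXL1 lies within the span of KYAT3, so RBMXL1 and KYAT3 reads may not be separable.

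**Figure D4:**
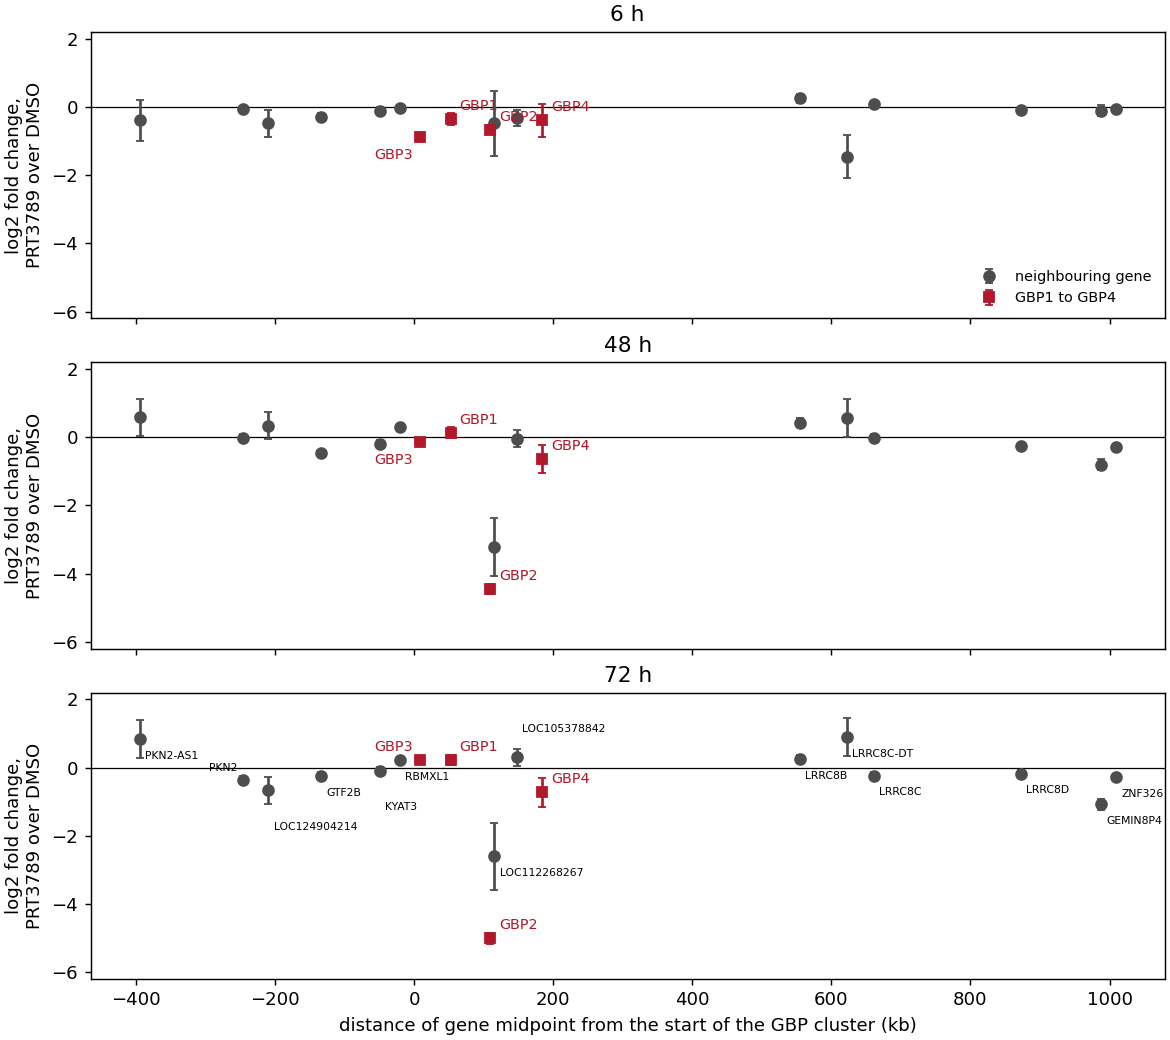
Log2 fold change of PRT3789 over DMSO (bars 1 SE) against the distance of each gene's midpoint from the start of the GBP cluster, at 6, 48 and 72 h; red squares are GBP1 to GBP4 and grey circles the 14 tested neighbours. GBP2 lies at -4.45 at 48 h and -5.02 at 72 h, LOC112268267 at -3.22 and -2.61 at the same times, and all other points lie well above these.

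The interferon pathway around the family was described with 124 genes, chosen with earlier results of these data known, of which 102 passed the filter. Of these, 2 were called higher and 13 lower at 6 h (1.96% and 12.7%), 28 higher and 23 lower at 48 h (27.5% and 22.5%), and 29 higher and 26 lower at 72 h (28.4% and 25.5%). Over all tested genes, 1.28% were called higher and 3.04% lower at 6 h, and the shares at 48 and 72 h lay between 20.9% and 22%. The count of 13 at 6 h was 7 without DMSO replicate 3, and the count of 2 was 4 without DMSO replicate 1 and 1 without PRT3789 replicate 1 or 3 or DMSO replicate 3. Wherever a list below has a count of 0 by edgeR, DESeq2 and limma-voom called 0 as well, and an unadjusted p under 0.05 was reached by 0 genes other than 1 ISRE-type gene, higher at 6 h, and 1 STAT or IRF gene, lower at 6 h. The median log2 fold change of the 102 genes was -0.09 at 6 h, 0.05 at 48 h and 0.02 at 72 h.

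Interferon ligands were barely detected: none of 8 genes, among them IFNG and IFNB1, passed the filter. Of 9 receptor and JAK kinase genes, 0 were called at 6 h and 2 were higher at 48 and 72 h, IFNAR2 and IFNGR1. IFNAR2, a subunit of the type I interferon receptor, had 68.2 ± 2.74 CPM in PRT3789 and 47.7 ± 0.286 CPM in DMSO at 72 h (log2 fold change 0.52, adjusted p = 8.49e-07). IFNGR1, the ligand-binding chain of the interferon gamma receptor, had 50.9 ± 1.42 CPM in PRT3789 and 40.5 ± 3.18 CPM in DMSO at 72 h (log2 fold change 0.33, adjusted p = 0.0324). That call was lost without PRT3789 replicate 2 or 3 or DMSO replicate 1 or 3 (0.0607 to 0.112). Its call at 48 h was lost with DESeq2 (0.0613) and when any of 5 of the 6 libraries was left out (0.0748 to 0.196). The kinase gene JAK1 did not pass, with 255 ± 9.70 CPM in PRT3789 and 266 ± 4.95 CPM in DMSO at 72 h (log2 fold change -0.06).

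Among 13 tested STAT and IRF genes, 1 was called higher and 0 lower at 6 h, 6 higher and 3 lower at 48 h, and 6 higher and 1 lower at 72 h. IRF1, the factor that acts on ISRE sequences of the family, rose, with 172 ± 2.13 CPM in PRT3789 and 49.6 ± 2.03 CPM in DMSO at 72 h (log2 fold change 1.79, adjusted p = 1.5e-13). IRF1 had a log2 fold change of 1.70 at 48 h and of 0.24 at 6 h (adjusted p = 0.0239). The 6 h call of IRF1 was lost without PRT3789 replicate 1 or 3 or DMSO replicate 3 (0.0559 to 0.112), and with that time fitted apart (0.415). The IRF1 transcript was thus higher in PRT3789 at 72 h, where GBP2 was 32.4-fold lower and GBP3 1.16-fold higher.

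STAT2 and IRF9 act together in the complex that type I interferon forms. STAT2 had log2 fold changes of 0.08, 0.30 and 0.04 at 6, 48 and 72 h, of which that at 48 h passed (adjusted p = 0.0484). The STAT2 call was lost with DESeq2 (0.0575) and without any of 5 of the 6 libraries (0.0775 to 0.207). IRF9 had log2 fold changes of -0.32 at 6 h and 0.35 at 72 h, of which the later one passed (adjusted p = 0.039); it was lost without PRT3789 replicate 1 or 3 or DMSO replicate 2 or 3 (0.0754 to 0.165).

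Among 8 tested inhibitors of interferon signalling, 0 were called higher and 2 lower at 6 h, 2 higher and 2 lower at 48 h, and 3 higher and 3 lower at 72 h. SOCS1, which blocks JAK kinases and is itself an interferon target, fell at all 3 times. It had 3.05 ± 0.659 CPM in PRT3789 and 7.80 ± 0.559 CPM in DMSO at 6 h (log2 fold change -1.35, adjusted p = 5.24e-05). At 72 h it had 1.13 ± 0.168 CPM in PRT3789 and 9.18 ± 1.18 CPM in DMSO (log2 fold change -3.02, adjusted p = 5.4e-10). ISG15, a ubiquitin-like modifier that stabilises the inhibitor USP18, rose at 72 h, with a log2 fold change of 0.74 (adjusted p = 0.00725).

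Other interferon targets went both ways. Of 17 tested GAS-type interferon gamma targets, 1 was called higher and 1 lower at 6 h, 9 higher and 4 lower at 48 h, and 9 higher and 3 lower at 72 h, with median log2 fold changes of -0.12, 0.36 and 0.45. TAP1, which carries peptides into the endoplasmic reticulum, had 1557 ± 51.7 CPM in PRT3789 and 159 ± 2.39 CPM in DMSO at 72 h (log2 fold change 3.29, adjusted p = 2.4e-16). CD274, the checkpoint ligand PD-L1, had 3.09 ± 0.0693 CPM in PRT3789 and 6.75 ± 0.943 CPM in DMSO at 72 h (log2 fold change -1.12, adjusted p = 2.99e-07). These genes had the largest called rise and the largest called fall of their list.

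Of 31 tested ISRE-type interferon-stimulated genes, 0 were called higher and 8 lower at 6 h, 6 higher and 9 lower at 48 h, and 7 higher and 13 lower at 72 h. Their median log2 fold changes were -0.37, -0.02 and -0.12. OASL, an antiviral protein related to the oligoadenylate synthetases, fell to 0.219 ± 0.107 CPM in PRT3789, against 1.43 ± 0.120 CPM in DMSO, at 72 h (log2 fold change -2.68, adjusted p = 2.23e-06). IFI27 had 2.96 ± 0.688 CPM in PRT3789 and 0.468 ± 0.330 CPM in DMSO at 72 h (log2 fold change 2.62, adjusted p = 0.0249). The IFI27 call was lost without PRT3789 replicate 3 or DMSO replicate 1 or 2 (0.0572 to 0.0841). At 6 h, without PRT3789 replicate 1, IFI27 was called lower (log2 fold change -3.14, adjusted p = 0.0189).

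**Figure D5:**
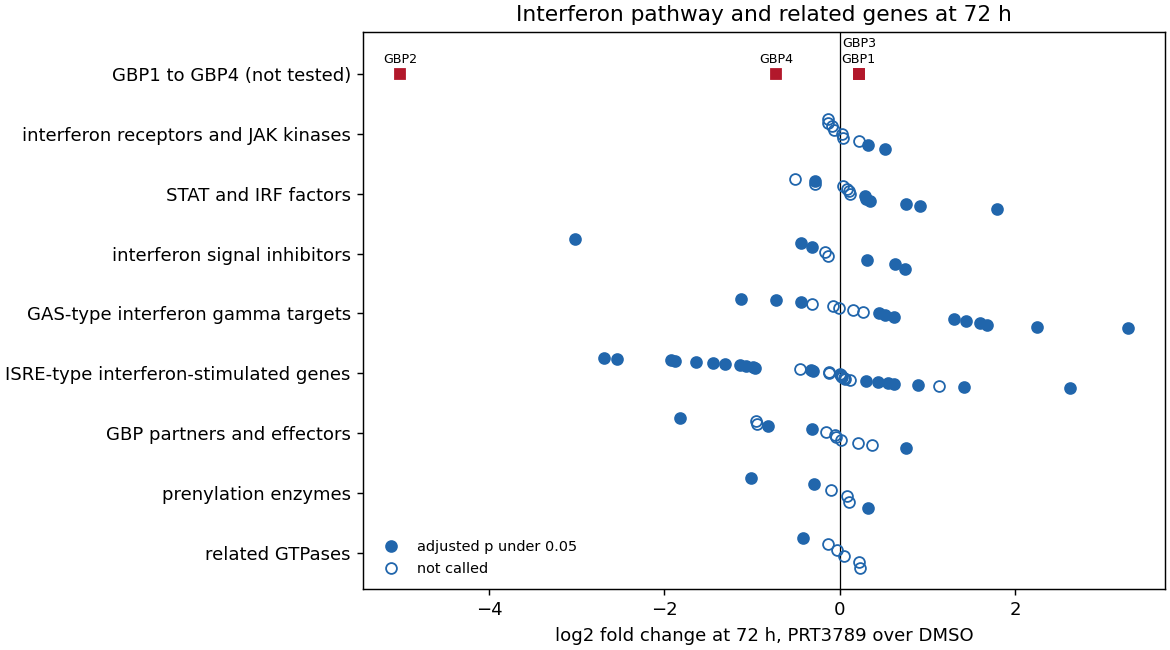
Log2 fold change of PRT3789 over DMSO at 72 h for GBP1 to GBP4 (squares, not tested) and the genes of the 8 lists with tested members (circles, filled where adjusted p was under 0.05). Within the GAS-type list values run from -1.12 for CD274 to 3.29 for TAP1, and GBP2 lies at -5.02.

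Genes whose products act with the family were counted next. Of 12 tested partners and effectors, 0 were called higher and 2 lower at 6 h, 2 higher and 3 lower at 48 h, and 1 higher and 3 lower at 72 h. PIM1, a kinase that phosphorylates GBP1 and holds it in the cytosol, had 23.6 ± 1.44 CPM in PRT3789 and 41.6 ± 3.01 CPM in DMSO at 72 h (log2 fold change -0.82, adjusted p = 1.65e-06). PIM1 also fell at 48 h, with a log2 fold change of -0.73 (adjusted p = 8.69e-06). At 6 h its log2 fold change of -0.36 (adjusted p = 0.0416) was no longer called when any of 5 of the 6 libraries was left out (0.0506 to 0.158). FURIN, the protease that GBP2 and GBP5 inhibit, had log2 fold changes of 0.12, 0.02 and 0.02 and did not pass.

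NLRP3, a sensor that assembles an inflammasome, had 5.25 ± 0.566 CPM in PRT3789 and 7.96 ± 0.437 CPM in DMSO at 6 h (log2 fold change -0.60, adjusted p = 0.00975). At 72 h it had 9.39 ± 0.458 CPM in PRT3789 and 5.56 ± 0.784 CPM in DMSO (log2 fold change 0.75, adjusted p = 9.77e-05). The 6 h call was lost without PRT3789 replicate 1 (0.0552) and with that time fitted apart (0.119). CASP1, the inflammasome protease, had at most 16 counts in a library and a log2 fold change of -1.82 at 72 h (adjusted p = 0.0262). It was not called there without PRT3789 replicate 2 or DMSO replicate 2 or 3 (0.0521 to 0.113).

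Prenylated proteins such as GBP1, GBP2 and GBP5 get their lipid from farnesyl or geranylgeranyl transferases, here FNTA, FNTB and PGGT1B, and RCE1, ZMPSTE24 and ICMT then trim or methylate such proteins. Of the 6 genes, all tested, none was called at 6 h, 0 were higher and 1, ICMT, lower at 48 h, and 1 was higher and 2 lower at 72 h. FNTA, the subunit that farnesyl and geranylgeranyl transferases share, had 128 ± 1.98 CPM in PRT3789 and 103 ± 4.75 CPM in DMSO at 72 h (log2 fold change 0.32, adjusted p = 0.00751). FNTB, the farnesyl transferase beta subunit, had 4.41 ± 1.47 CPM in PRT3789 and 8.91 ± 1.5 CPM in DMSO at 72 h (log2 fold change -1.01, adjusted p = 0.0127), and was not called without PRT3789 replicate 3 (0.0717). Of 6 tested related GTPases, 0 were called at 6 h, 1 was higher and 1 lower at 48 h, and 0 were higher and 1 lower at 72 h. ATL2, an atlastin of the same dynamin-like superfamily, had 70.3 ± 2.96 CPM in PRT3789 and 93.9 ± 3.52 CPM in DMSO at 72 h (log2 fold change -0.42, adjusted p = 7.24e-05).

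The genes whose log2 CPM followed each member most closely over the 18 libraries were sought among 11056 others with a mean of at least 5 CPM. The libraries share time and treatment, so a Pearson r describes the pattern only. For GBP2 the closest were SPARC (r = 0.995), a matricellular glycoprotein, BCAS1 (r = 0.995) and CDA (r = 0.994), cytidine deaminase. In all 3, as in GBP2, the later PRT3789 libraries stand apart from the others and set the r. CDA averaged 2.44 ± 0.152 CPM in PRT3789 and 47.2 ± 1.66 CPM in DMSO at 72 h, and 29.6 ± 0.717 CPM in PRT3789 and 38.8 ± 2.69 CPM in DMSO at 6 h.

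For GBP3 the closest genes were OLR1 (r = 0.933), a receptor for oxidised lipoprotein, RHPN2 (r = 0.919) and MR1 (r = 0.913), which presents microbial metabolites to T cells. OLR1 averaged 5.61 ± 0.549 CPM in PRT3789 and 10.4 ± 0.691 CPM in DMSO at 6 h, and 14.2 ± 1.30 CPM in PRT3789 and 13.9 ± 0.958 CPM in DMSO at 72 h. OLR1 averaged lower in PRT3789 at 6 h, as GBP3 did, and near the solvent level at 72 h, where GBP3 lay above it. For GBP1 the closest were CYP4V2 (r = 0.946), a fatty acid hydroxylase, PCDHB9 (r = 0.934), a protocadherin, and PLXDC2 (r = 0.931), a membrane protein. PLXDC2 averaged 32.6 ± 0.744 CPM in PRT3789 and 30.7 ± 3.48 CPM in DMSO at 72 h, against 13.6 ± 1.77 CPM in PRT3789 and 14.9 ± 2.34 CPM in DMSO at 6 h, so its means lay further apart between times than between treatments. With the 6 group means in place of the 18 libraries, 2 of the 3 genes named for GBP2, 1 of those for GBP3 and 0 of those for GBP1 stayed among the closest 3. With Spearman's rho, 0, 1 and 0 did.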

How the data were processed

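Messenger RNA was measured in 18 libraries, 3 in each of 6 groups taken from the labels. Per the labels, stranded poly(A) libraries were read as 150 bp pairs. The authors deposited expected counts per gene, made with nf-core/rnaseq 3.17.0, Trim Galore, STAR and RSEM on GRCh38 (annotation release 110), per the labels; the values were already whole. The filter filterByExpr kept 16291 of 43236 genes. Counts were scaled by TMM and fitted with edgeR 4.0.16 (R 4.3.3): robust quasi-likelihood, 1 mean per group, two-sided F tests, Benjamini-Hochberg over all tested genes, threshold 0.05. SE is the log2 fold change over the root of F. A prior count of 2 entered log2 CPM. The test was tried on simulated data. The labels do not say whether replicates were separate cultures, so p-values measure the spread between libraries, which may be technical. Replicate numbers were not treated as pairs. With each gene's group mean subtracted, log2 CPM of same-numbered PRT3789 and DMSO libraries of a time correlated at -0.237 to 0.338 (9 pairs).

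Members, gene lists and tests were chosen with earlier results of these data known. Named genes are the members, tested neighbours, the called gene with the largest rise and fall at 72 h of each list, 12 fixed pathway and family genes, and the 3 genes most like each member above 1 CPM; CDH5 and the line markers are named as markers. Some genes that the rule names are not reported here. Alternatives were other scalings, filters, DESeq2 1.42.0, limma 3.58.1 (voom), groups fitted apart, a replicate block, left-out libraries and a threshold of 0.01. Counts carry no molecular identifiers, so the detection limit of 3 counts covers counting error only.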

Additional observations from a re-analysis of the deposited data

Results flagged for a closer look

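The PRT3789 libraries of GBP3 lay on opposite sides of the DMSO libraries at different times, without overlap: its log2 fold change was -0.884 at 6 h, -0.149 at 48 h and 0.22 at 72 h. The difference between the times was not tested, since the choice of GBP3 used these contrasts. Only the members and the named pathway genes were searched for such a change of side. The share of all tested genes that showed one was not counted.

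NLRP3 showed the same change of side, with log2 fold changes of -0.601 at 6 h, 0.466 at 48 h and 0.753 at 72 h, each called by edgeR. The 6 h call was lost without PRT3789 replicate 1 (adjusted p = 0.0552) and with that time fitted apart (0.119). The 48 h call was lost without PRT3789 replicate 3 (0.0558). Whether its effect differed between times was not tested.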

How the results depend on the processing

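All 163 alternative values of the members between PRT3789 and DMSO moved by less than the spread between libraries, taken as the larger SD of the compared groups. Leaving out a library can hardly move a group mean by that much, so those settings could hardly have failed. The sign changed for GBP1 at 48 h and for GBP4 at 6 h, each without PRT3789 replicate 3 of that time. On the log2 scale GBP2 lay between -4.75 and -4.31 at 48 h, and between -5.20 and -4.86 at 72 h. In DMSO between 6 and 48 h, GBP1 was called under all 14 alternatives (adjusted p 0.00187 to 0.0357). GBP3, not called in that comparison, passed with total counts (0.30, adjusted p = 0.0184), a filter of 1 CPM in 3 libraries (0.22, 0.0377), DESeq2 (0.20, 0.0418) and without DMSO 6 h replicate 2 (0.26, 0.0442; left-out libraries gave 0.12 to 0.26), and GBP4 with total counts (1.13, 0.0499). Total counts moved the median of all tested genes by 0.11 there. In DMSO between 48 and 72 h, GBP2 passed with DESeq2 (-0.36, adjusted p = 0.0179) and with the groups fitted apart (-0.37, 0.0108).

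The count of pathway genes called higher at 6 h was 1 with no filter, with the replicate block or at a threshold of 0.01, and 0 with that time fitted apart; left-out libraries gave 1 to 4. Those called lower at 6 h were 3 with that time fitted apart and 6 at 0.01. Left-out libraries gave 7 to 15. With 6 h fitted apart, 21 of all 15061 tested genes were called higher and 126 lower. The main fit called 209 higher and 496 lower of 16291. Over all tested genes, left-out libraries gave 121 to 574 higher and 345 to 509 lower at 6 h. At 72 h, 17 pathway genes were called lower at 0.01. Among neighbours, left-out libraries gave 0 to 1 called higher and 0 to 1 lower at 6 h, and 1 to 2 higher at 48 h. At 72 h, 0 were called higher with DESeq2 size factors, no filter, a threshold of 0.01 or any library left out, and 2 with the replicate block or that time fitted apart. The cause was not tested for any of these. Nothing in the labels ties libraries of the same replicate number together, and with the replicate block GBP1 in DMSO kept a log2 fold change of 0.60; GBP4 and GBP5 are limited by depth.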
